A study of Mus musculus with 37 samples.

Results

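The cerebral cortex of mice with 3 copies of a chromosome 7 segment (dp/+) was compared with that of wild-type mice with 2 copies (+/+). The segment corresponds to human 16p11.2, a region whose loss and gain are both linked to autism. The comparison used every cortex sample of these genotypes: 2 dp/+ mice with 1 array each, and 3 +/+ mice with 4 arrays, since +/+ mouse 3 was hybridised 2 times and its arrays were averaged. These 5 of the 31 region samples, on 6 of 37 arrays, were taken by genotype and region as the labels give them. All mice were F1 hybrid males of C57BL/6N and 129Sv, and the dp/+ mice carried the engineered duplication on 1 chromosome. Ages are not given in the labels. The other samples were cortex of 2 df/+ mice, which carry the deletion, and olfactory bulb, cerebellum and brain stem of the same 8 mice. No cortex of dp/+ mouse 3 is among the samples. By the labels the replicates are different animals, and with so few arrays the precision of every value is limited by their number.

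The duplicated interval holds genes of several kinds. Some act in signalling (Taok2, Ppp4c), some in protein turnover (Kctd13), some at the synapse (Doc2a), and others in chromatin, splicing, metabolism and the cytoskeleton. An engineered copy adds the coding unit together with the regulatory sequence that lies inside the segment. A transcript may follow the number of gene copies or be held closer to its usual level by feedback. In a duplication the level can be set beside the copy number gene by gene. In people, deletion and duplication of the region are known for opposite shifts in head size and body weight.

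All levels are log2 values of Affymetrix gene-level arrays, and a difference of 1 on this scale is a factor of 2 in signal. Probe sets with 1 gene symbol gave 19938 genes. The labelled tissue was checked against region markers in the +/+ mice: of 11 measured cortical markers, 9 were highest in cortex, the exceptions being Bcl11b, highest in olfactory bulb, and Nptx1, highest in cerebellum. Of 19 markers of the other regions, 0 were highest in cortex. The median SD of a gene was 0.07 over the 2 dp/+ mice and 0.10 over the 3 +/+ mice, against 0.05 between the 2 arrays of +/+ mouse 3. The cortex arrays did not share 1 distribution of values. The lower quartile was 5.85 and 5.86 in dp/+ mice and 5.75 to 5.83 on the +/+ arrays, and the upper quartile was 9.18 and 9.21 in dp/+ mice and 9.18 to 9.31 on the +/+ arrays. The values by level, given further on, stand beside every count that this can touch.

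The duplicated genes had higher levels in dp/+ cortex in nearly every mouse-by-mouse comparison. Of 33 listed interval genes 30 were measured. The other 3, Prrt2, Mapk3 and Ino80e, lack a probe set with a single symbol. All 30 fitted differences were above 0, where 53.2% of all genes were. Both dp/+ mice lay above all 3 +/+ mice for 29 of the 30 genes, and 25.9% of all genes did so. The exception was Tlcd3b, where 1 +/+ mouse lay between the dp/+ mice. The median difference was 0.33 log2, a level in dp/+ cortex at 126% of +/+, with single genes from 113% (AI467606) to 154% (Gdpd3). Over all genes the median difference was 0.01 log2.

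Averaged over the 30 genes, the interval stood at 8.96 and 9.0 log2 in the 2 dp/+ mice, against 8.64, 8.64 and 8.62 in the 3 +/+ mice. The dp/+ mean exceeded the +/+ mean by 0.35, while the +/+ mice lay within 0.02 of each other. The same average was higher in dp/+ mice by 0.26 in olfactory bulb, 0.30 in cerebellum and 0.27 in brain stem (3 mice of each genotype), regions that share their mice with the cortex samples.

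No single gene of the interval or outside it passed a false discovery rate of 0.05. limma called 0 of 19938 genes (0%), with 3143 (15.8%) at an unadjusted p below 0.05. Of these, 2488 genes (12.5%) were higher in dp/+ cortex and 655 (3.29%) lower. This split was 1664 higher and 1197 lower after centring each array on its median, and 1189 and 726 after cyclic loess between arrays. Among the interval genes, 26 of 30 were higher at an unadjusted p below 0.05 and 0 were lower, and their smallest adjusted p was 0.144. How signal on these arrays scales with transcript number was not tested. In the 2 df/+ mice, with 1 copy, the cortex mean of the interval differed from that of +/+ mice by −0.49 and −0.50 log2. The 95% interval of the difference held log2 of 1.5 (0.58), the value proportional to copy number, for 13 genes and lay wholly below it for 17. These counts move with 1 mouse: without dp/+ mouse 2, 15 interval genes were higher at an unadjusted p below 0.05, as were 5.2% of all genes. With array weights, 22 interval genes and 2592 genes in all (13%) passed the adjusted threshold.

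**Figure D1:**
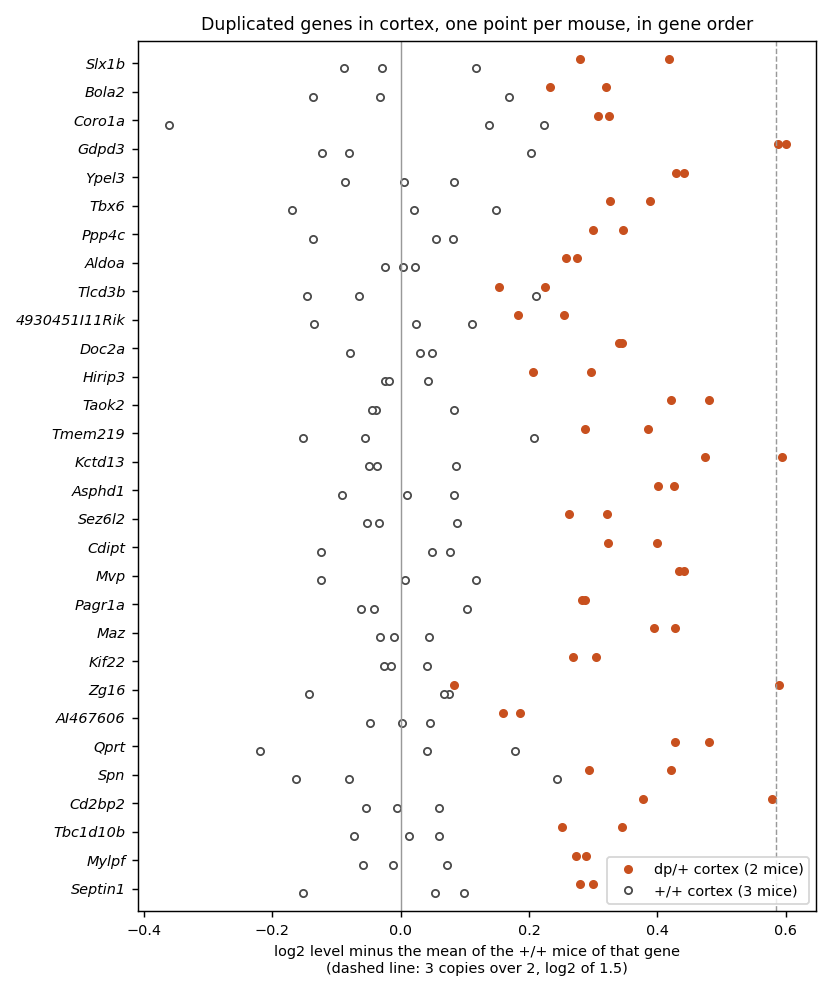
Level of each measured interval gene in every cortex sample, as log2 minus the mean of the +/+ mice of that gene; filled points are the 2 dp/+ mice and open points the 3 +/+ mice, and genes run in chromosome order. The filled points lie right of all open ones in 29 of 30 genes, and most lie left of the dashed line at 0.58, the value proportional to copy number. How array signal scales with transcript number was not tested.

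The 3 promoter windows printed here belong to Ypel3 and Cd2bp2, the interval genes with the smallest p, and to Kctd13, the gene of protein turnover. They run from 250 bases before to 50 bases after the gene start (RefSeq, GRCm38.p6), and capitals mark the GC box GGGCGG and the CCAAT box, read on both strands, which do not overlap each other. They show the start regions of genes that were higher side by side, and binding or methylation at them was not analysed here. A search for TATAAA marked nothing in them.
Ypel3, chr7:126776713-126777012, plus strand: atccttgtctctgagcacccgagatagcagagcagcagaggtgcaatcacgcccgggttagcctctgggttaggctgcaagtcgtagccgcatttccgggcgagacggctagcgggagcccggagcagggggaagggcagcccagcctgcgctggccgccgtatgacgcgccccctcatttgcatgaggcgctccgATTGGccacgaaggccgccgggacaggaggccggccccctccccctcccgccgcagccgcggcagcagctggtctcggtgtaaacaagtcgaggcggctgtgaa
Kctd13, chr7:126928629-126928928, plus strand: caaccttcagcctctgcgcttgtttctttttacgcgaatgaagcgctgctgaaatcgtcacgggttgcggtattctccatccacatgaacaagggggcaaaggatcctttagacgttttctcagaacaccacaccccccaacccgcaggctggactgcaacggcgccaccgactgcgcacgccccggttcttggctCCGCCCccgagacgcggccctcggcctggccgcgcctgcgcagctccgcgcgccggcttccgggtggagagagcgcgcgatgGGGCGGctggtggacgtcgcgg
Cd2bp2, chr7:127196028-127196327, minus strand: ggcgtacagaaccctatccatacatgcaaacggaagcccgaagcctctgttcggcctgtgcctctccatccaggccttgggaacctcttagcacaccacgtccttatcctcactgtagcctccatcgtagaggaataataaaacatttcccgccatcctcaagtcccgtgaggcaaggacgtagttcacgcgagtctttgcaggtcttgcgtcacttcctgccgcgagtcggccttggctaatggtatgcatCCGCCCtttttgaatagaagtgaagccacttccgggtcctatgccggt
Promoter windows were found for 24 of the 30 measured genes. Of these 24 genes, 12 had GGGCGG in a window of theirs, 7 had CCAAT and 2 had TATAAA. Of all 32851 promoter windows, 35.7% held GGGCGG, 37.4% held CCAAT and 13.6% held TATAAA. These shares are of single windows, whereas some interval genes have several windows, so the 2 sets of values are not directly comparable. The first window of each interval gene had a median of 17 CG dinucleotides and a GC content from 49.3% to 80.3%, where all windows had a median of 7. Slx1b and Bola2, at the Slx1b end of the interval, are transcribed in opposite directions, and 284 of the 300 bases of their windows are shared. Slx1b was 0.32 ± 0.12 log2 and Bola2 0.28 ± 0.13 log2 higher in dp/+ cortex (SE of the fit).

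Signalling and protein turnover genes of the interval had differences of 0.34 to 0.52 log2. Kctd13, an adaptor of the CUL3 ubiquitin ligase, was at 10.98 and 10.86 log2 in dp/+ mice, against 10.47, 10.34 and 10.35 in +/+ mice. Its difference was 0.52 ± 0.14 log2 (SE, adjusted p = 0.144). Taok2, a kinase of the stress-activated MAP kinase pathway, was at 10.76 and 10.82 in dp/+ mice, against 10.42, 10.30 and 10.30 in +/+ mice, a difference of 0.46 ± 0.12. Ppp4c, the catalytic subunit of protein phosphatase 4, was at 9.45 and 9.50 in dp/+ mice, against 9.21, 9.23 and 9.01 in +/+ mice, a difference of 0.34 ± 0.11. For each of these 3 genes both dp/+ mice were above all +/+ mice.

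Genes of the synapse and of membranes had differences of 0.21 to 0.62 log2. Doc2a, a calcium sensor of transmitter release, was at 10.10 and 10.10 log2 in dp/+ mice, against 9.79, 9.68 and 9.81 in +/+ mice (difference 0.33 ± 0.12). Sez6l2, a neuronal membrane protein, was at 11.28 and 11.34 in dp/+ mice, against 11.10, 10.96 and 10.98 in +/+ mice (0.29 ± 0.12). The groups did not overlap in either gene. Cdipt, which makes phosphatidylinositol, was at 11.17 and 11.25 in dp/+ mice, against 10.90, 10.92 and 10.72 in +/+ mice (0.35 ± 0.10). Gdpd3, a lysophospholipase D, gave the largest difference of the interval, with 8.29 and 8.28 in dp/+ mice, against 7.57, 7.90 and 7.61 in +/+ mice. Its difference of 0.62 ± 0.16 corresponded to 154% of +/+, with a 95% interval from 122% to 194%. Asphd1, a predicted hydroxylase, was higher by 0.41 ± 0.10 and the membrane protein gene Tmem219 by 0.33 ± 0.12. Tlcd3b was 0.21 ± 0.12 log2 higher, with the groups overlapping. It stood at 8.49 and 8.56 in dp/+ mice, against 8.19, 8.27 and 8.55 in +/+ mice.

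The genes of chromatin, transcription, splicing and repair included those with the smallest p. Ypel3, a growth suppressor of the Yippee family, was at 11.75 and 11.76 log2 in dp/+ mice, against 11.32, 11.40 and 11.23 in +/+ mice, a difference of 0.43 ± 0.09 (unadjusted p = 3.715e-05, adjusted p = 0.144). Cd2bp2, a component of the U5 splicing particle, was at 8.69 and 8.90 in dp/+ mice, against 8.31, 8.38 and 8.26 in +/+ mice, a difference of 0.48 ± 0.10 at the same adjusted p. The 2 dp/+ values of Ypel3 differed by 0.01 and those of Cd2bp2 by 0.20. Maz, a zinc-finger transcription factor, was at 10.39 and 10.36 in dp/+ mice, against 9.93, 9.95 and 10.01 in +/+ mice (0.40 ± 0.12). Slx1b, a subunit of a structure-specific nuclease, Kif22, a mitotic kinesin, and Hirip3, a partner of the histone chaperone HIRA, were higher by 0.32 ± 0.12, 0.29 ± 0.10 and 0.26 ± 0.10. Tbx6, a transcription factor of the embryonic mesoderm, was 0.35 ± 0.11 higher. Pagr1a, which belongs to a histone methyltransferase complex, was at 10.57 and 10.58 in dp/+ mice, against 10.40, 10.25 and 10.23 in +/+ mice. Its difference of 0.24 ± 0.20 was the one with the largest p of the interval (0.242), although the groups did not overlap. Its SE comes from the spread over all 31 samples, and its df/+ cortex values of 9.51 and 8.61 lie far apart.

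Metabolic, trafficking and cytoskeletal genes gave differences of 0.27 to 0.46 log2. Aldoa, a glycolytic aldolase and the brightest gene of the interval, was at 13.29 and 13.31 log2 in dp/+ mice, against 13.03, 13.05 and 13.01 in +/+ mice (0.27 ± 0.09, 121% of +/+, 95% interval 107% to 137%). Qprt, an enzyme of the route from tryptophan to NAD, was at 7.44 and 7.49 in dp/+ mice, against 7.05, 6.79 and 7.19 in +/+ mice (0.46 ± 0.13). Mvp, the main protein of vault particles, was at 7.87 and 7.88 in dp/+ mice, against 7.45, 7.32 and 7.56 in +/+ mice (0.46 ± 0.11). All of these had non-overlapping groups. Tbc1d10b, an activator of Rab GTPase hydrolysis, was 0.29 ± 0.12 higher, Bola2, an iron-sulfur protein partner, 0.28 ± 0.13, and Septin1, a filament-forming GTPase, 0.30 ± 0.13. Coro1a, an actin regulator of leukocytes, was at 9.76 and 9.77 in dp/+ mice, against 9.67, 9.59 and 9.09 in +/+ mice. The lowest value was that of +/+ mouse 3, and the difference was 0.33 ± 0.17 (unadjusted p = 0.0565).

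The remaining interval genes are not known as genes of cortical neurons. Spn, a sialoprotein of leukocytes, was 0.36 ± 0.13 log2 higher, and Mylpf, a light chain of fast muscle myosin, 0.29 ± 0.12. Zg16, a secretory lectin of gut and pancreas, was the dimmest, at 5.06 and 5.57 in dp/+ mice, against 5.06, 4.84 and 5.05 in +/+ mice. Dp/+ mouse 1 and +/+ mouse 1 were both at 5.06, so that the absence of overlap rests on a margin below 0.01. AI467606 was 0.18 ± 0.09 and 4930451I11Rik 0.21 ± 0.16 higher.

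The medians of the genes beside the interval were nearer 0 than the interval median of 0.33, while single neighbours were as high as interval genes. Of the 20 measured genes next to it on the Slx1b side, 4 lay with both dp/+ mice above all +/+ mice, 1 lay below, and the median difference was 0.00 log2. Over all genes, 25.9% lay above and 13.9% below in this way. On the Septin1 side the count was 5 of 20 above and 1 below, with a median of 0.08. Sult1a1, the measured neighbour of Slx1b, differed by 0.06 (unadjusted p = 0.652), and Zfp553, close to Septin1, by −0.20 (unadjusted p = 0.12). Gm4532, between Septin1 and Zfp553, was higher by 0.35 at an unadjusted p of 0.0152. The neighbour with the largest difference and the smallest p was 1700008J07Rik, on the Septin1 side. It was at 8.33 and 8.30 in dp/+ mice, against 7.88, 7.72 and 7.97 in +/+ mice. Its difference of 0.47 ± 0.15 (unadjusted p = 0.00378, adjusted p = 0.159) was also 0.47 after cyclic loess, and 3 interval genes, Gdpd3, Kctd13 and Cd2bp2, had a larger one. Atp2a1, a muscle calcium pump and 1 of the 20 neighbours on the Slx1b side, was 0.35 ± 0.12 log2 higher. Farther out on the Septin1 side, Itgax, an integrin of dendritic cells, was 0.43 ± 0.13 log2 higher. Both are dim genes. In the 2 listed flanks, 5 of 23 and 3 of 36 measured genes were higher at an unadjusted p below 0.05, 0 lower, and 0 passed after adjustment, where 12.5% of all genes were higher at that p. Gm4532 and 1700008J07Rik are in neither list.

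**Figure D2:**
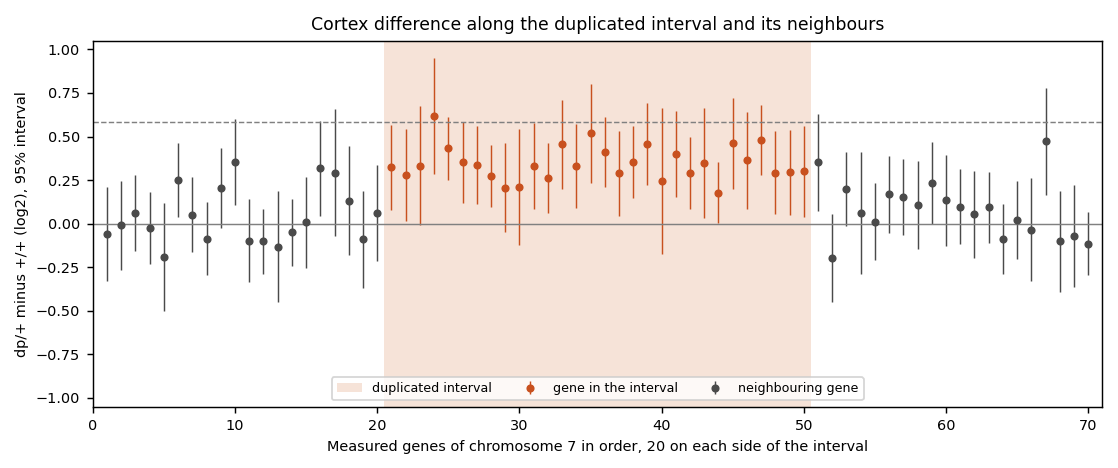
Fitted difference of dp/+ minus +/+ cortex (log2) with its 95% interval for the 30 interval genes and the 20 measured genes on each side, in chromosome order; the dashed line is log2 of 1.5. The interval genes lie between 0.18 and 0.62, and the neighbours have medians of 0.00 and 0.08.

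Dim genes as a class had values above those of +/+ cortex, which stands beside every count given here. When the genes were cut into 10 equal bins by mean cortex level, the median difference was 0.07, 0.15, 0.19 and 0.17 log2 in the 4 dimmest bins, 0.03 in the fifth, and between −0.08 and −0.03 in the 5 brightest. In the third bin the median gene stood at 6.33 and 6.39 in dp/+ mice, against 6.19, 6.14 and 6.24 in +/+ mice. Of the 9969 genes in the 5 dimmer bins, 2320 (23.3%) were higher at an unadjusted p below 0.05. In the 5 brighter bins 168 (1.69%) were. The cause of this shift was not tested.

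Set against genes of their own level, most interval genes lay above the median. In the brighter 5 bins lay 19 interval genes. Of these, 15 were higher at an unadjusted p below 0.05, and thus 15 of the 168 such genes of all kinds. Both dp/+ mice were above all +/+ mice for 18 of these 19 genes, where 6.93% of all genes in these bins were. The 11 interval genes in the dimmer bins were all higher at an unadjusted p below 0.05, in the range where 23.3% of genes were. In all 11 both dp/+ mice lay above all +/+ mice, as in 44.9% of genes there. The difference exceeded the median of the gene's own bin in 29 of 30 genes, by a median of 0.37 log2. The exception was AI467606, at 0.18 in a bin with a median of 0.19. After cyclic loess between arrays, which pulled the bin medians to between −0.03 and 0.06, the interval median was 0.36. Then 5.96% of all genes were higher at an unadjusted p below 0.05, and so were 21 interval genes, 16 of the 19 brighter and 5 of the 11 dimmer ones. Both dp/+ mice were above all +/+ mice for 26 interval genes and for 16.9% of all genes.

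**Figure D3:**
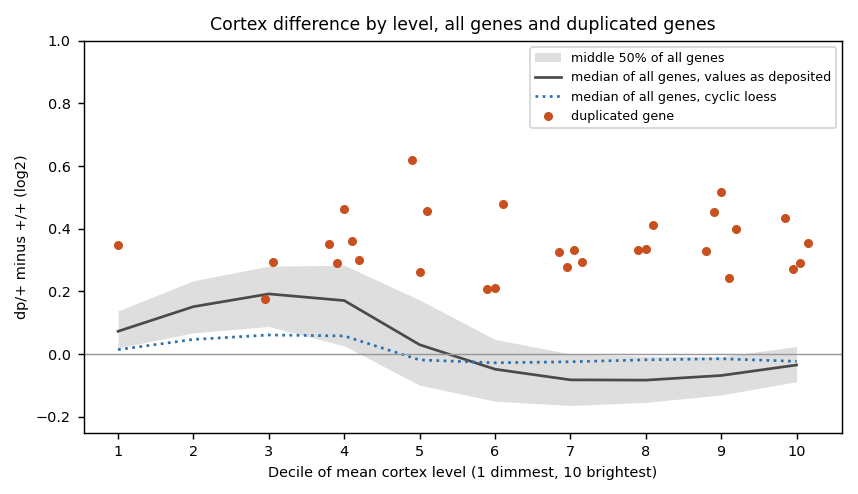
Difference of dp/+ minus +/+ cortex (log2) against the bin of mean cortex level, from the dimmest 10% to the brightest 10% of genes; the grey band is the middle 50% of all genes, the solid line their median, the dotted line the median after cyclic loess, and points are the 30 interval genes. The band rises above 0 for dim genes, and the interval genes lie above the line in 29 of 30 cases.

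Outside the interval the 10 genes higher with the smallest p were all dim, in bins 2 to 4. Ppm1j, a PP2C-type protein phosphatase, was at 7.15 and 7.10 log2 in dp/+ mice, against 6.65, 6.31 and 6.64 in +/+ mice, a difference of 0.59 ± 0.11 (adjusted p = 0.0969). Popdc2, a cAMP-binding membrane protein of heart and muscle, was at 6.33 and 6.48 in dp/+ mice, against 5.81, 6.01 and 6.02 in +/+ mice (0.46 ± 0.08, adjusted p = 0.0969). Skor1, a transcriptional corepressor, was at 7.28 and 7.18 in dp/+ mice, against 6.81, 6.52 and 6.69 in +/+ mice (0.55 ± 0.10, adjusted p = 0.0980). These 3 were the genes with an adjusted p below 0.1 (0.015% of all genes). The LIM-homeodomain factor gene Lhx5 was higher by 0.59 ± 0.13, Pimreg, linked to cell division, by 0.57 ± 0.12, and Morn3 by 0.53 ± 0.11. Without +/+ mouse 3, Lhx5 was 0.74 higher and passed in limma (adjusted p = 0.0333). The mast cell tryptase gene Tpsb2, the mesothelin-like gene Mslnl and the heat and capsaicin receptor gene Trpv1 were higher by 0.39 to 0.45. After cyclic loess Ppm1j was higher by 0.46, Popdc2 by 0.33 and Skor1 by 0.43, with adjusted p values of 0.157, 0.157 and 0.194.

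Among the 10 genes lower with the smallest p, the splicing kinases Clk1 and Clk4 were the brightest, both in bin 9. These kinases phosphorylate the serine- and arginine-rich splicing factors. Clk1 was at 10.20 and 10.01 log2 in dp/+ mice, against 10.72, 10.52 and 10.56 in +/+ mice, a difference of −0.48 ± 0.12 (adjusted p = 0.144). Clk4 was at 9.76 and 9.54 in dp/+ mice, against 10.03, 10.07 and 10.12 in +/+ mice (−0.43 ± 0.11, adjusted p = 0.144). Both dp/+ mice were below all +/+ mice, as for 13.9% of all genes. In df/+ cortex, Clk1 was at 10.27 and 10.69 and Clk4 at 9.67 and 10.001. Lin28b, which binds the precursors of let-7 microRNAs, was at 6.94 and 6.59 in dp/+ mice, against 7.22, 7.31 and 7.05 in +/+ mice (−0.44 ± 0.11). Fsd1l was lower by a difference of −0.39 ± 0.08, 4930503L19Rik, in bin 6, by −0.56 ± 0.13, Gm1698 by −0.43 ± 0.11, the chemokine gene Ccl28 by −0.40 ± 0.11 and Erich6 by −0.49 ± 0.13. The last 2 of the 10, Mir379 and Mir412, are microRNA genes.

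**Figure D4:**
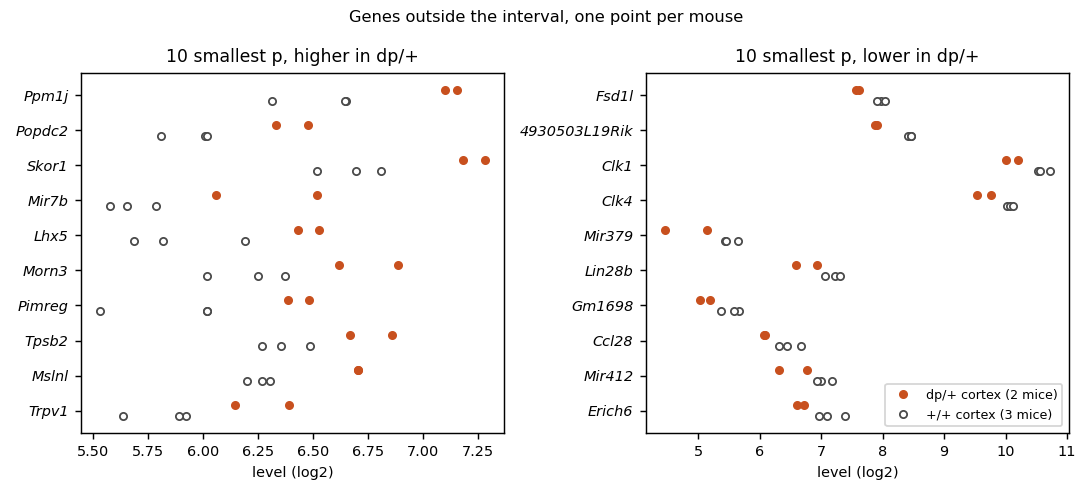
Level (log2) of 20 genes from outside the interval, the 10 of smallest p in each direction, with the 2 dp/+ mice as filled and the 3 +/+ mice as open points. The genes were picked by p from these same values, and the groups do not overlap for any of the 20. Of all genes, 25.9% lay with both dp/+ mice above all +/+ mice and 13.9% below. Of the 20 genes, 0 have an adjusted p below 0.05.

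The microRNA genes at the extremes were Mir7b, higher, and Mir379 and Mir412, lower. Whether the probe sets read the hairpin transcript, the host transcript or the mature RNA was not tested. Mature sequences of both arms are shown with bases 2 to 8, the seed that pairs with targets, in capitals (RefSeq, GRCm38.p6), since the arm cannot be told from the array. Mir7b lies on chromosome 17 and the others in 1 cluster on chromosome 12.
miR-7b-5p, chr17:56243017-56243040, plus strand: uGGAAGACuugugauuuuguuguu
miR-7b-3p, chr17:56243055-56243076, plus strand: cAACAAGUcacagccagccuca
miR-379-5p, chr12:109709065-109709085, plus strand: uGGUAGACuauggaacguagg
miR-379-3p, chr12:109709102-109709123, plus strand: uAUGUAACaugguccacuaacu
miR-412-5p, chr12:109743303-109743325, plus strand: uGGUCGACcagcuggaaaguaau
miR-412-3p, chr12:109743340-109743359, plus strand: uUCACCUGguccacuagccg
miR-369-5p, chr12:109743431-109743452, plus strand: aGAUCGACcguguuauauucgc
miR-369-3p, chr12:109743466-109743486, plus strand: aAUAAUACaugguugaucuuu
miR-382-5p, chr12:109733781-109733802, plus strand: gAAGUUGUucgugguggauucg
miR-382-3p, chr12:109733819-109733840, plus strand: uCAUUCACggacaacacuuuuu
No seed was shared among the mature sequences of Mir7b and of the 13 lower cluster genes described next.

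Mir7b was at 6.06 and 6.52 log2 in dp/+ mice, against 5.66, 5.58 and 5.79 in +/+ mice (0.61 ± 0.13, adjusted p = 0.144), and 0.48 higher after cyclic loess. Without dp/+ mouse 1 it was 0.85 higher and passed in limma (adjusted p = 0.0377). Mir379 was at 5.15 and 4.46 in dp/+ mice, against 5.43, 5.45 and 5.64 in +/+ mice (−0.71 ± 0.18, adjusted p = 0.144). Mir412 was at 6.77 and 6.31 in dp/+ mice, against 6.99, 6.93 and 7.18 in +/+ mice (−0.50 ± 0.14, adjusted p = 0.144). In both lower genes dp/+ mouse 2 was the lower of the pair.

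Mir379 and Mir412 belong to the large microRNA cluster between Dlk1 and Dio3 on chromosome 12, an imprinted region whose microRNAs are made from the maternal chromosome. The cluster was chosen for description after its values were seen, and no test was made of it. Of its 40 measured microRNA genes 34 had a difference below 0 and 13 were lower at an unadjusted p below 0.05, where 3.29% of all genes were, while 2, Mir666 and Mir673, were higher. The median difference was −0.26 log2, and −0.33 after cyclic loess. Of the 260 other microRNA genes 70 had a difference below 0, 11 were lower and 52 higher at an unadjusted p below 0.05, and the median was 0.09. In the dimmer 5 bins lay 230 of these 260 genes and 25 of the 40 cluster genes. There 23.3% of all genes were higher and 2.01% lower. After cyclic loess the median of the 260 was 0.03, with 16 lower and 25 higher, and 18 cluster genes were lower and 3 higher. Averaged over the 40 genes, dp/+ mice 1 and 2 were at 7.29 and 6.94, against 7.20, 7.27 and 7.59 in the 3 +/+ mice, so that dp/+ mouse 1 lay within the +/+ range. Dp/+ mouse 2 was below all +/+ mice in 34 of the 40 genes and dp/+ mouse 1 in 13. Among the +/+ mice, mouse 3 was the highest in 36 of the 40 genes. Rian, a long noncoding RNA of the same region, was at 8.84 and 8.43 in dp/+ mice, against 9.29, 9.08 and 9.23 in +/+ mice (−0.60 ± 0.19, unadjusted p = 0.00388). Its difference was 0.08 in olfactory bulb, −0.55 in cerebellum and −0.57 in brain stem. Meg3, the long noncoding RNA at its start, was at 11.97 and 11.58 in dp/+ mice, against 11.77, 11.73 and 12.23 in +/+ mice, with overlapping groups. The median difference of the 40 genes was 0.13 in olfactory bulb, −0.04 in cerebellum and −0.07 in brain stem.

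**Figure D5:**
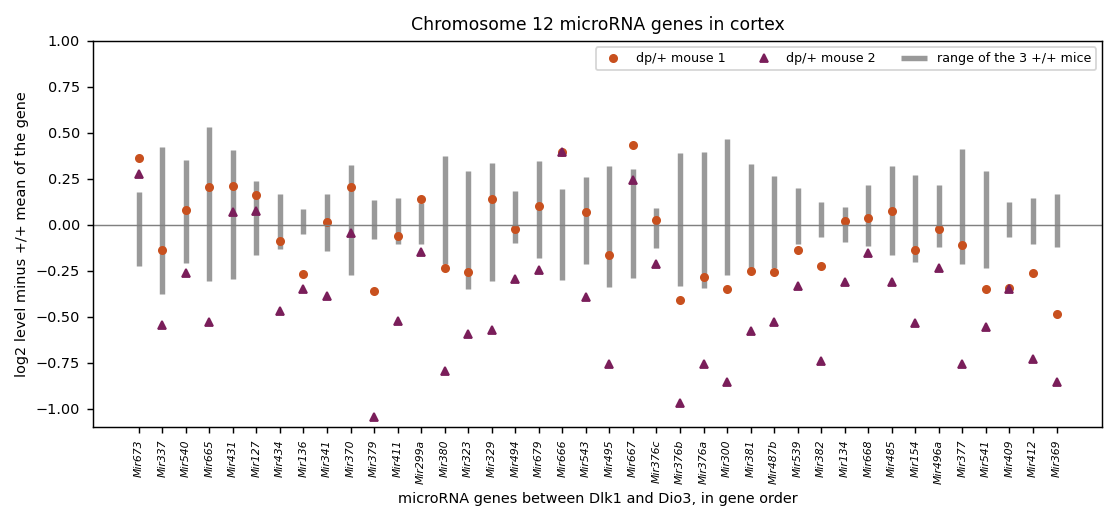
Level of the 40 measured microRNA genes between Dlk1 and Dio3 in cortex (log2 minus the +/+ mean of the gene), in chromosome order, with dp/+ mouse 1 as circles, dp/+ mouse 2 as triangles and the range of the 3 +/+ mice as bars. Triangles lie below the bars in 34 genes and circles in 13.

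Of the lists of partners of the duplicated proteins, none had a gene past the adjusted threshold. Of 9 measured partners and relatives of the phosphatase 4 catalytic subunit, 8 had a difference below 0, as did 9340 of all 19938 genes. Both dp/+ mice were below all +/+ mice for 6, as for 13.9% of all genes. Of the 9 genes 0 lay in the dimmer bins, and bright genes as a whole had medians between −0.08 and −0.03. The share lying below in this way among bright genes alone was not counted. The list median was −0.16 log2, or −0.09 relative to genes of like level. Ppp4r4 was at 9.22 and 9.07 in dp/+ mice, against 9.51, 9.53 and 9.47 in +/+ mice (−0.35 ± 0.14, unadjusted p = 0.0187). Ppp4r3a was at 9.25 and 9.22 in dp/+ mice, against 9.59, 9.57 and 9.44 in +/+ mice (−0.28 ± 0.13, unadjusted p = 0.0430). Both are regulatory subunits, and neither passed after adjustment (adjusted p = 0.229 and 0.299).

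Of 11 measured genes of the CUL3 ligase and RhoA pathway, in which Kctd13 works, 8 had a difference below 0. Of all 19938 genes 9340 did. The list median was −0.07, or 0.01 relative to genes of like level. Rock1, a RhoA effector kinase, had the smallest p, at 9.07 and 8.77 in dp/+ mice, against 9.31, 9.27 and 9.19 in +/+ mice (−0.31 ± 0.14, unadjusted p = 0.0330), and Cul3 differed by −0.16 ± 0.09. Of 27 measured genes of the ERK pathway, to which the unmeasured Mapk3 belongs, 0 had an unadjusted p below 0.05. A difference below 0 was seen for 20, and the median was −0.14, or −0.07 relative to genes of like level. The Ras activators Sos2 and Sos1 differed by −0.21 ± 0.11 and −0.22 ± 0.13, and the kinase gene Araf by 0.18 ± 0.09. Of 15 glycolytic genes around Aldoa and 20 genes of vesicle release around Doc2a, 0 had an unadjusted p below 0.05, with medians of 0.03 and −0.04.

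Lists of cortical cell types had medians near 0, and a smaller share of cells cannot be told apart from less RNA per cell in these tissue samples. Of 14 upper-layer, 20 deep-layer and 25 interneuron genes, 0 had an unadjusted p below 0.05 in either direction, and their medians were −0.06, −0.01 and −0.04 log2. Of 18 pyramidal neuron genes 1 did, the homeobox gene Emx2, at 8.15 and 8.06 in dp/+ mice, against 8.45, 8.49 and 8.33 in +/+ mice (−0.32 ± 0.14, unadjusted p = 0.0281). Bright genes as a whole had medians between −0.08 and −0.03. Astrocyte, myelin, oligodendrocyte precursor and microglia lists had medians between −0.02 and 0.03, with 1 of 18, 1 of 18, 0 of 12 and 0 of 18 genes at an unadjusted p below 0.05. These were Apoe, the main lipid carrier of astrocytes (0.24 ± 0.10), and Gjb1, a connexin of myelinating cells (0.30 ± 0.13).

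Markers of tissue bordering the cortex were also read. Of 14 measured choroid plexus genes all 14 had a difference above 0, both dp/+ mice were above all +/+ mice for 7, the median was 0.27, and 0 had an unadjusted p below 0.05. Of the list 7 genes lay in the dimmer bins, and both dp/+ mice were above all +/+ mice for 25.9% of all genes and 44.9% of those in the dimmer bins. Their mean was 8.09 and 8.28 log2 in dp/+ mice, against 8.06, 7.98 and 7.84 in +/+ mice. Of 15 genes of the meninges 10 had a difference above 0 and 5 below, with a median of 0.07 and Ogn the lowest at −0.14 ± 0.26. The collagen genes Col3a1, Col1a1 and Col1a2 were higher by 0.35 ± 0.12, 0.27 ± 0.10 and 0.24 ± 0.11 (unadjusted p = 0.00633, 0.0116 and 0.0391). In olfactory bulb, cerebellum and brain stem Col3a1 differed by 0.24, 0.35 and 0.26, Col1a1 by 0.27, 0.15 and 0.19, and Col1a2 by 0.25, 0.02 and 0.28. Of 19 endothelial and pericyte genes 10 had a difference above 0 and 9 below, with a median of 0.03. The tight junction gene Cldn5 was higher by 0.45 ± 0.17 (unadjusted p = 0.0104), and by 0.40, 0.23 and 0.41 in the other regions in the same order. Rgs5, a pericyte gene, differed by −0.13 ± 0.11 in cortex. Of 23 genes of striatal medium spiny neurons 1 had an unadjusted p below 0.05, the dopamine receptor gene Drd1. It was at 9.85 and 9.24 in dp/+ mice, against 10.08, 10.10 and 9.83 in +/+ mice, with dp/+ mouse 1 inside the +/+ range. Of 15 hippocampal genes C1ql2 (0.30 ± 0.11) and Fibcd1 (0.27 ± 0.12) were higher and Trpc6 (−0.29 ± 0.13) lower at an unadjusted p below 0.05. Of red blood cell genes Alas2 alone was measured, at a difference of 0.00. The part of these tissues in the other differences was not tested.

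The cortex was then set against the other 3 regions. limma called 0 of 19938 genes (0%) for a difference between the effect in cortex and the mean effect of the other regions, with 1499 genes (7.52%) at an unadjusted p below 0.05. Skor1 and Ppm1j had the smallest p. Skor1 differed between dp/+ and +/+ by 0.55 in cortex, −0.15 in olfactory bulb, −0.12 in cerebellum and 0.08 in brain stem (adjusted p = 0.0912). Ppm1j differed by 0.59 in cortex, −0.13 in olfactory bulb, 0.20 in cerebellum and −0.13 in brain stem (adjusted p = 0.0912). Oxld1 differed by 0.39 in cortex and −0.42 in olfactory bulb (adjusted p = 0.183). Dnaaf2, an assembly factor of ciliary dynein, differed by 0.35 and −0.30 (adjusted p = 0.220), and Lhx5 by 0.59 and −0.10 (adjusted p = 0.337). All of these genes are in the dimmer bins, Lhx5 in bin 3, Skor1, Ppm1j and Oxld1 in bin 4 and Dnaaf2 in bin 5. The median cortex difference of all genes in bins 3, 4 and 5 was 0.19, 0.17 and 0.03.

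Among the interval genes 3 of 30 had an unadjusted p below 0.05 for that difference, where 7.52% of all genes did, and 0 passed after adjustment. Cd2bp2 differed by 0.48 in cortex, 0.20 in olfactory bulb, −0.07 in cerebellum and 0.38 in brain stem (unadjusted p = 0.00652, adjusted p = 0.632). Mylpf differed by 0.29 in cortex, −0.13 in olfactory bulb, 0.09 in cerebellum and 0.00 in brain stem (unadjusted p = 0.0224). Qprt differed by 0.46 in cortex and by 0.15, 0.17 and 0.15 in the other regions in the same order (unadjusted p = 0.0328). Mylpf and Qprt are dim genes, in bins 3 and 4. After cyclic loess the cortex difference was 0.49 for Cd2bp2, 0.17 for Mylpf and 0.37 for Qprt. Of the genes with no such p, Gdpd3 was higher by 0.62 in cortex, 0.64 in olfactory bulb, 0.52 in cerebellum and 0.70 in brain stem, and Ppp4c by 0.34, 0.34, 0.35 and 0.34.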

How the data were processed

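Total RNA, extracted with Trizol and labelled with whole-transcript sense target kits per the labels' protocols, was read on Affymetrix gene-level arrays. The authors' deposited log2 values are RMA summaries made in Affymetrix Expression Console, per the submitters' processing notes, which give no versions. The log base was read from the values. All 35556 probe sets of every array were read. Of them, 21789 have 1 gene symbol, 1621 have several and 12146 are not listed in the platform table. Where a gene had several, its brightest probe set was kept, leaving 19938 genes. Of the single-symbol identifiers, 21698 were found in the RefSeq gene table (GRCm38.p6), which was used for names and gene order.

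The 2 arrays of 1 extract were averaged. limma 3.58.1 in R 4.3.3 was fitted to the 31 samples with 12 means of region and genotype, treating mouse as a random effect through duplicateCorrelation (consensus 0.12). The contrast was dp/+ minus +/+ cortex, with Benjamini-Hochberg adjustment across the 19938 genes and 0.05 as the threshold. A fitted difference can differ slightly from the difference of the group means, because the block uses the other regions of the same mice. SE values and 95% intervals come from this fit, which assumes that cortex varies as much as the other regions. The labels give no batch or hybridisation date, so none was tested. The fit was tested on simulated data.

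The genes named are every measured interval gene; outside the interval the 10 with the smallest p in each direction, since fewer than 5 passed; up to 4 members of each list; and 5 for the contrast with the other regions. Genes beyond this rule (neighbours of the interval, the chromosome 12 genes) were chosen after their values were seen. The comparison, the 46 gene lists and the tests were chosen with earlier results of these data known. Alternatives tried were every probe set, only the first array where a sample had 2, brighter genes only, quantile normalisation and cyclic loess within regions, median centring, cortex samples alone, no block, a trended robust prior, array weights, the replicate number as a block, each mouse left out, and a threshold of 0.1. Cyclic loess (3 iterations) with cortex samples alone or with the trended prior was added after the data were seen. Without 1 dp/+ mouse, the other is taken to have the spread seen in the remaining groups.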

Additional observations from a re-analysis of the deposited data

How the results depend on the processing

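The number of genes past the adjusted threshold was 0 as reported and stayed at 0 with every probe set, only the first array where a sample had 2, brighter genes only, quantile normalisation, median centring, cyclic loess, 7 or 5 cortex samples alone, no block for the mouse and a trended robust prior, and with both settings added after the data were seen. It was 2592 with array weights (2085 higher, 507 lower), 3 at an adjusted p below 0.1, and 0 to 2 when 1 mouse was left out (2 without dp/+ mouse 1, Mir7b among them, and Lhx5 without +/+ mouse 3). For the interval it was 22 of 30 genes with array weights and 0 otherwise, and for the contrast of cortex with the other regions 38 with array weights and 0 to 2 with 1 mouse left out. The cause of the jump with array weights was not tested. The replicate block, with the biological replicate number as a fixed term, gave 1 gene, Ppm1j, for the whole comparison and changed no other call. The labels give the same numbers to different mice. The deviations of dp/+ and +/+ samples from their group means correlated at −0.20 for number 1 and 0.06 for number 2. With 2 dp/+ mice, the deviations of 1 are those of the other with the sign reversed, so these values cannot decide whether a number marks anything shared.

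At an unadjusted p below 0.05, 2488 genes were higher and 655 lower as reported. The split was 1664 and 1197 with median centring, 1189 and 726 with cyclic loess, 137 and 466 among brighter genes only, and 1036 and 338 without dp/+ mouse 2. Of the interval genes, 26 were higher at that p as reported, 21 to 27 with other settings on all genes, 16 among the brighter genes alone and 15 to 24 with 1 mouse left out. None of the 30 interval genes or of the 20 genes named outside the interval changed direction under any of these settings. Members of the other lists were not followed through them. The median of all genes moved by less than 0.1 log2 under each scaling. The comparison rests on 2 and 3 mice, and dim genes, whose signal lies nearest to the background, were shifted as a class.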

Other observations

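Families outside the cortical cell types were read against the shares over all genes. At an unadjusted p below 0.05, 12.5% of all genes and 23.3% of those in the dimmer 5 bins were higher, and both dp/+ mice were above all +/+ mice for 25.9% and 44.9%. Of 96 measured keratin and keratin-associated genes, structural genes of skin and hair, 45 were higher and 0 lower at an unadjusted p below 0.05, and both dp/+ mice were above all +/+ mice for 69. Their median difference was 0.22 log2, 0.06 above genes of like level, and 0.12 after cyclic loess with 21 higher. Of these 96 genes 89 lay in the dimmer 5 bins. The median bin of the list was 3, where 34.6% of all genes were higher and 1.55% lower. Krt75 was at 6.91 and 6.87 in dp/+ mice, against 6.44, 6.21 and 6.595 in +/+ mice. Of 1027 olfactory receptor genes, 1024 of them in the dimmer bins, 104 were higher and 2 lower. Their median bin was the dimmest, where 7.92% of all genes were higher and 0.201% lower. The median difference was 0.09, or −0.01 relative to genes of like level. It was 0.02 after cyclic loess, when 30 of these receptor genes were higher and 10 lower. Members of these families share sequence, so which member gave a signal is uncertain.

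Of 43 histone genes 8 were higher and 1 lower at an unadjusted p below 0.05, with a median of 0.13, 0.03 above genes of like level, and 0.05 after cyclic loess. Of these 43 genes 30 lay in the dimmer bins, and their share of higher genes lay between that of all genes and that of dim genes. H1f7, a linker histone of the male germ line, was at 7.41 and 7.54 in dp/+ mice, against 6.82, 6.85 and 7.14 in +/+ mice. Of 64 small nucleolar and other small RNA genes 3 were higher and 5 lower, where 12.5% of all genes were higher and 3.29% lower. Snord57 was at 12.27 and 12.42 in dp/+ mice, against 11.90, 11.63 and 11.99 in +/+ mice (0.51 ± 0.18, adjusted p = 0.181), while Snord14e was at 9.49 and 9.004 in dp/+ mice, against 9.75, 10.02 and 9.92 in +/+ mice (−0.73 ± 0.26, adjusted p = 0.185). Rpph1, the RNA of ribonuclease P, was 0.25 ± 0.10 higher.

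Genes that follow stress hormone and time of day were read as well. Of 17 measured glucocorticoid-responsive genes 10 had a difference below 0, both dp/+ mice were below all +/+ mice for 6, as for 13.9% of all genes, and the median was −0.14, or −0.16 after cyclic loess. Fkbp5, a chaperone induced by glucocorticoids, was at 8.48 and 8.37 in dp/+ mice, against 8.70, 8.85 and 8.73 in +/+ mice (−0.35 ± 0.15, unadjusted p = 0.0315, adjusted p = 0.266). Nfkbia, Zbtb16 and Tsc22d3 differed by −0.26 ± 0.14, −0.36 ± 0.20 and −0.27 ± 0.15. Of 16 clock genes 14 had a difference below 0, where 9340 of all 19938 genes did. The median bin of the clock list was 9. Over all genes of that bin the upper quartile of differences was −0.008, so most of them were below 0 too. The median of the clock genes was −0.06, or −0.03 relative to genes of like level. Per3 was at 8.96 and 8.92 in dp/+ mice, against 9.19, 9.24 and 9.13 in +/+ mice (−0.26 ± 0.12, unadjusted p = 0.0377). Of 27 immediate early genes and 19 chaperone genes 0 had an unadjusted p below 0.05.

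Of the receptor and channel lists, 20 glutamate receptor genes had a median of −0.07, 11 GABA receptor genes −0.03, 22 potassium channel genes −0.10, 22 sodium and calcium channel genes −0.08, and 21 synaptic adhesion and scaffold genes −0.07, where bright genes as a whole lay between −0.08 and −0.03. Scn1a, a sodium channel of fast-spiking neurons, was at 9.99 and 9.99 in dp/+ mice, against 10.33, 10.21 and 10.16 in +/+ mice (−0.23 ± 0.10, unadjusted p = 0.0264, adjusted p = 0.252). In the same list Scn3a, a related sodium channel, was lower (−0.26 ± 0.11, unadjusted p = 0.0289), and Cacnb2, a calcium channel subunit, was higher, at 6.58 and 6.62 in dp/+ mice, against 6.31, 6.12 and 6.36 in +/+ mice (0.33 ± 0.14, unadjusted p = 0.0205). Of 23 genes linked to autism outside the interval, 3 of them in the dimmer bins, 20 had a difference below 0. Of all 19938 genes 9340 did. The list median was −0.08, or −0.04 relative to genes of like level. In this list 1 gene, the oxytocin receptor gene Oxtr, was higher at an unadjusted p below 0.05 (0.28 ± 0.13). Of 91 respiratory chain genes and 60 ribosomal protein genes 1 each had an unadjusted p below 0.05, with medians of −0.01 and 0.01. The Y-linked genes Kdm5d and Uty differed by −0.28 ± 0.12 and −0.29 ± 0.12 at unadjusted p values of 0.0239 and 0.0244. Both dp/+ mice were below all +/+ mice for these genes, as for 13.9% of all genes. Eif2s3y, also Y-linked, differed by −0.25 ± 0.15 (unadjusted p = 0.116), with overlapping groups. Kdm5d lies in bin 7 and Uty and Eif2s3y in bin 8, and both bins had a median of −0.08. Xist differed by 0.03 ± 0.10 in these males.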
